A study of Arabidopsis thaliana with 12 samples.

Results

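The genes described here are 33 nuclear-encoded genes of Arabidopsis thaliana, known in the annotation only by a locus tag, whose signal was higher in cellular RNA of early embryos than in RNA of isolated embryo nuclei. They were chosen on the measured values themselves, out of 11798 locus-tag genes, read by 11933 probe sets with 1 gene each on the Affymetrix ATH1 array. A gene was taken if, on the log2(intensity + 16) scale, its lowest value on the 3 arrays of cells lay above its highest value on the 9 arrays of nuclei, its mean in cells was at least 8, and that mean was at least 2 above the mean of the nuclei. A cap of 300 genes was not reached. Because the contrast of cells with nuclei chose the genes, it is given below as a description without a test.

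All plants were of the accession Col-0 and grew under 16 h of light and 8 h of dark. Cellular RNA came from whole embryos at the stage of 8 to 32 cells, which were pressed out of their ovules and rinsed, and a PicoPure kit was used for the extraction (3 arrays). Suspensor nuclei, proembryo nuclei and nuclei of the whole embryo (3 arrays each) came from embryos of 2 to 16 cells; ovules had been fixed in 0.1% paraformaldehyde, nuclei were sorted by flow cytometry, and RNA was released with proteinase K. Tissue-specific marker lines supplied the nuclei, and their promoters are not stated in the labels. Stage, fixation, sorting and extraction all differ between the cells and the nuclei and cannot be told apart from the compartment. The titles call the replicates biological without saying what was separate, so p-values measure only the spread between these samples.

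A nucleus holds transcripts that are being made, processed or retained, whereas a whole cell adds the cytoplasm, where stable messenger RNAs accumulate and are translated. The early embryo is divided into the proembryo, from which nearly all of the later plant derives, and the suspensor, a stalk of few cells that anchors it and feeds it from the mother tissue. The ovule around it also holds endosperm and the maternal seed coat, whose RNA can enter a sample of so small an organ. All 33 genes are annotated as protein coding, and the tables used here pair them only with clone-based synonyms, so that no role is given to any of them and the functional classes planned for the description could not be filled. Every member was read by 1 probe set. No 2 members lay within 5 protein-coding genes of each other in the order of assembly TAIR10.1. By their locus tags 12 lie on chromosome 1, 5 on chromosome 2, 3 each on chromosomes 3 and 4, and 10 on chromosome 5. Chromosome 1 thus held 36.4% of the members and 26.0% of all locus-tag probe sets, and chromosome 3 held 9.09% and 20.5%.

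All 12 arrays as deposited had the same mean after trimming, 200.02 intensity units, so a level is relative to the other probe sets of its array. Signs of sample make-up differed. The 25S ribosomal RNA control read 9514 ± 1158 intensity units in whole-embryo cells and 22152 ± 1941 in nuclei of the whole embryo (SD, n = 3 each; exact two-sided permutation p = 0.1, the smallest that 3 against 3 arrays allow). The log2 ratios of 3′ to 5′ control probe sets were 3.17 in cells and 3.67 in whole-embryo nuclei for GAPDH and 4.15 and 4.69 for ubiquitin, without overlap between the groups (exact two-sided permutation p = 0.1 each). For actin they were 6.07 in cells and 5.67 in whole-embryo nuclei, with overlap (p = 0.4 by the same exact test). Over all 9 nuclei arrays the GAPDH ratio did overlap with that of cells. Suspensor replicate 3 (2.31) and proembryo replicate 2 (2.54) read below every array of cells. The ubiquitin ratio was higher on every nuclei array than on any array of cells. Between suspensor and proembryo nuclei the ratios were 4.95 and 5.66 for actin (exact two-sided permutation p = 0.3), 3.78 and 3.68 for GAPDH, and 4.90 and 4.70 for ubiquitin. The hybridisation controls averaged 12.98 ± 1.23 log2 units in suspensor and 12.42 ± 0.50 in proembryo nuclei (SD, n = 3 each). Suspensor replicate 3 was the highest of all arrays, at 14.11. The part of RNA quality in the levels of the members and in the contrasts among nuclei was not tested. Of 35 marker genes listed for seed coat, endosperm, embryo and suspensor, 7 had a named probe set. A named probe set is one matched to 1 gene in the annotation, so the other markers may still be on the array. BAN encodes a reductase that makes tannin precursors in the seed coat. It is the 1 of 11 seed coat markers with a named probe set, and stood between 12.12 and 14.03 log2 units on all 12 arrays. The embryo regulator BBM stood between 6.53 and 9.40. The endosperm regulators AGL62 and AGL80 stood between 5.37 and 7.56, and none of the 5 suspensor markers had a named probe set. The labelled suspensor could therefore not be checked against markers of its own.

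The clause on non-overlapping arrays was met by 294 of the 11933 locus-tag probe sets (2.46%), and all clauses together by 33 (0.277%). Each of the 33 probe sets that passed the clauses on level and size also passed the clause on overlap. Of the 44 probe sets without overlap and at least 2 apart, 11 had a mean in cells under 8. The same rule was met by 4 of 1580 probe sets with a symbol or an organelle gene (0.253%), namely EXPA21, TET10, SWEET9 and SK16. Turned round, with nuclei above cells, it was met by 44 locus-tag probe sets (0.369%). These counts follow from the rule and were not tested.

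**Figure D1:**
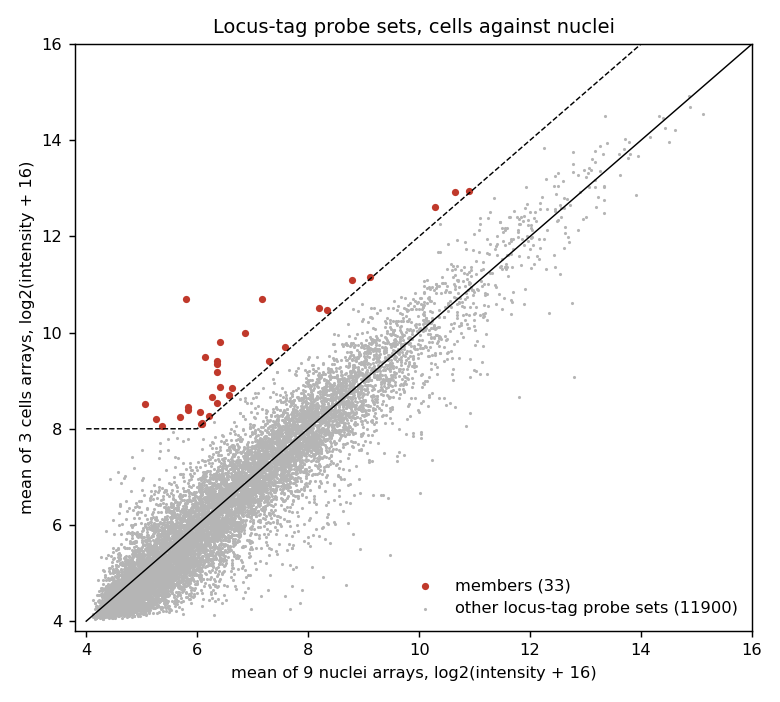
Mean of the 3 cells arrays (vertical axis) against the mean of the 9 nuclei arrays (horizontal axis) for 11933 locus-tag probe sets, both as log2(intensity + 16). The 33 members in red lie above the dashed line that marks the rule's limits, and the solid line marks equal values.

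AT3G15720 stood farthest from the nuclei. Its signal was 10.34, 10.36 and 11.41 log2 units in cells, against 4.14 to 6.83 with a median of 5.88 over the 9 nuclei arrays. Every array of cells thus lay at least 3.51 log2 units above every array of nuclei, the widest gap of any member. The means differed by 4.90 on this scale. The size depends on the intensity units added before the log, and was 4.0 with 64 and 5.56 with 1 in place of 16. In linear intensity units it read 1276, 1298 and 2714 in cells and 1.69 to 97.5 in nuclei, which put it at a mean percentile of 96.5 among all probe sets in cells and 32.1 in nuclei.

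AT2G43660 stood at 11.10, 10.93 and 10.07 in cells, against 6.18 to 8.16 with a median of 7.19 in nuclei, a difference of 3.52. AT5G07260 stood at 8.75, 8.53 and 8.30 in cells and at 4.14 to 7.09, median 4.63, in nuclei, a difference of 3.47. That difference was 2.29 with 64 intensity units added before the log and 4.65 with 1, in place of 16. AT5G22810 stood at 9.17, 9.62 and 10.61 in cells and at 4.77 to 8.41, median 6.53, in nuclei, a difference of 3.40. For AT5G22810 the gap between the groups was 0.77, because suspensor replicate 3 read 8.41 while the other nuclei arrays stayed at or below 7.03. AT1G42980 stood at 9.73, 10.46 and 8.30 in cells and at 5.28 to 7.08, median 6.14, in nuclei, a difference of 3.35. AT5G25410 was the most even of the leading members, at 10.20, 9.94 and 9.82 in cells and 6.16 to 7.32, median 7.08, in nuclei, a difference of 3.12. Its SD of 0.19 in cells was the smallest of the 33.

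AT1G62290 was the least even, at 8.01, 9.77 and 10.43 in cells and 4.31 to 7.49, median 6.91, in nuclei. Its difference was 3.04, with SDs of 1.25 in cells and 1.17 over the nuclei that were the largest of the 33 in both. AT1G53860 stood at 8.59, 9.24 and 10.19 in cells and 5.80 to 7.58, median 6.23, in nuclei. AT5G48940 stood at 7.53, 8.04 and 9.06 in cells and 4.54 to 6.14, median 5.08, in nuclei. AT4G20800 stood at 9.41, 9.17 and 8.93 in cells and 5.46 to 7.08, median 6.38, in nuclei. In these 3 genes the groups were apart by 1.01, 1.39 and 1.85, and the means differed by 2.99, 2.95 and 2.81.

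Differences of at least 3 were found in 7 members and differences of 2 to 2.5 in 19. The median difference over the 33 was 2.32, and 1.94 with 64 and 2.63 with 1 added. The groups lay at least 1 apart in 13 members and less than 0.5 apart in 6. The narrowest gap, 0.06, was that of AT1G51850, at 6.79, 8.17 and 9.23 in cells and 4.19 to 6.72 in nuclei. Just inside the limit of 2 were AT3G24250 (2.04), AT5G38195 (2.04), AT1G07690 (2.03), AT4G17215 (2.03) and AT5G59330 (2.01). Just outside were AT3G05600 (1.87), AT4G35985 (1.85), AT5G66650 (1.82), AT4G38700 (1.74) and AT3G48950 (1.71), which met the other clauses.

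The members fell into levels that differed widely. In cells, means ran from 8.06 for AT1G51850 to 12.94 for AT3G24250, with 16 members between 8 and 9 and 9 at 10 or more. AT3G24250, AT1G71691 and AT2G02515 were the brightest. AT3G24250 read 12.59, 12.65 and 13.57 in cells and 9.81 to 11.70 in nuclei. AT1G71691 read 12.60, 12.68 and 13.49 in cells and 10.35 to 11.20 in nuclei. AT2G02515 read 12.82, 12.64 and 12.37 in cells and 8.82 to 11.24 in nuclei. These 3 transcripts were bright in nuclei too, at mean percentiles of 99.4, 99.4 and 99.2 of all probe sets in cells, against 96.9, 96.7 and 95.0 in nuclei.

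Members ranged from dim to bright in nuclei. There, 4 (AT5G48940, AT1G51850, AT1G44130 and AT3G13370) lay below the array median on all 9 arrays. A further 10 lay above it on only 1 or 2 arrays. The other 19 lay above it on at least 3 arrays, 6 of them on all 9. The median member read 8.84 to 9.31 on the arrays of cells, 6.46 to 6.98 on those of suspensor nuclei, 6.22 to 6.71 on those of proembryo nuclei and 6.0 to 6.72 on those of whole-embryo nuclei. The median of all probe sets lay between 6.47 and 6.90 on the same 12 arrays. Near that level the added 16 intensity units shorten every difference, and with 64 units added 14 genes met the rule.

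**Figure D2:**
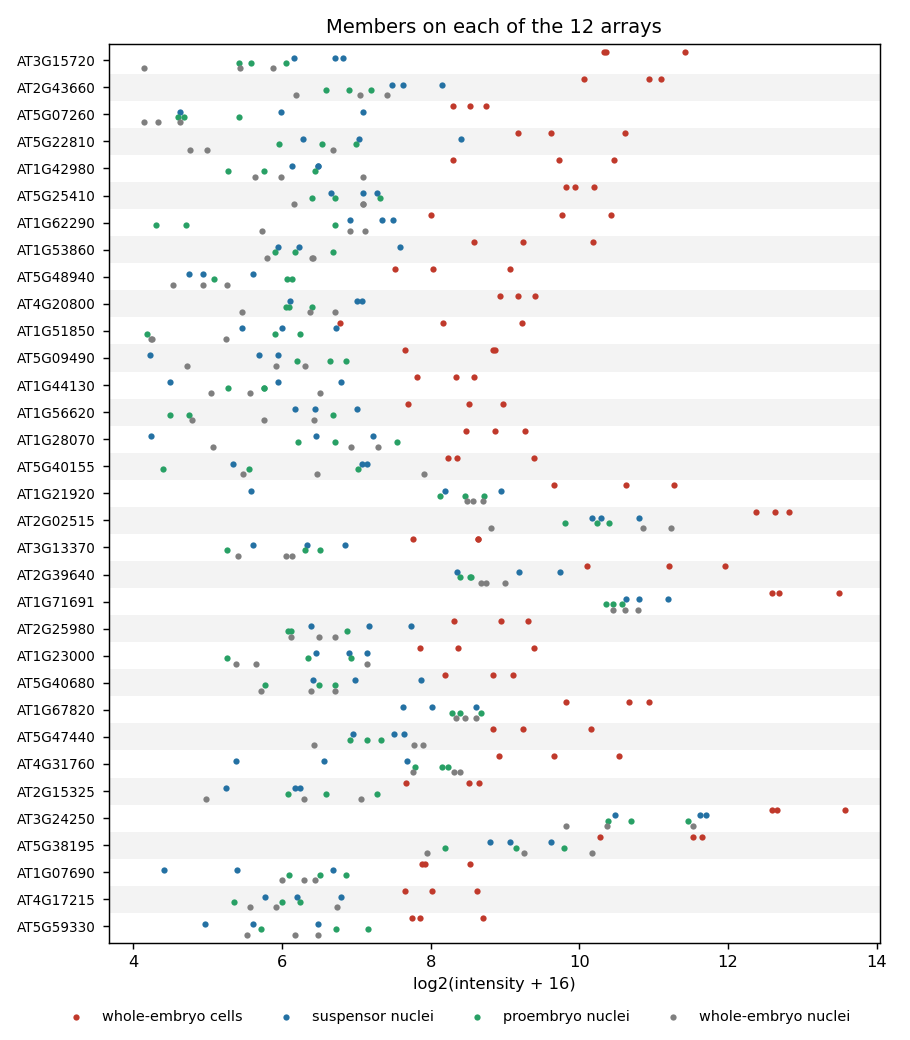
Level of each of the 33 members (rows, sorted by the difference between cells and nuclei) on the 12 arrays, as log2(intensity + 16), with the 3 arrays of a group in one colour. The red points of whole-embryo cells lie to the right of all nuclei in every row, as the rule requires, by 0.06 (AT1G51850) to 3.51 (AT3G15720).

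The rule put every array of cells above every array of nuclei, with means at least 2 apart over all nuclei. Positive differences against each kind of nuclei were therefore fixed in advance. Their medians were of similar size for each kind. The median over the 33 was 2.39 for cells minus suspensor nuclei, 2.46 for cells minus proembryo nuclei and 2.44 for cells minus whole-embryo nuclei, and 24, 28 and 30 members reached 2 in these comparisons, which share the arrays of cells. All locus-tag probe sets, which were not chosen in this way, had medians of -0.15, -0.08 and -0.07. The smallest difference of any member was 1.62 against suspensor, 1.57 against proembryo and 1.54 against whole-embryo nuclei. The largest was 4.14, 5.02 and 5.55 in the same order.

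The arrays of cells differed among themselves more for the members than for bright locus-tag genes as a whole. In both sets replicate 3 was the highest array for some genes and the lowest for others. Cells replicate 3 was the highest of the 3 arrays for 16 members (48.5%) and the lowest for the other 17 (51.5%), and in the middle for 0. Over the 2355 locus-tag probe sets with a mean of at least 8 in cells it was highest for 48.3% and lowest for 32.7%. It stood at least 1 log2 unit from the mean of replicates 1 and 2 for 15 members (45.5%), against 10.1% of the 2355. The median range over the 3 arrays was 1.08 for the members and 0.63 for the 2355, which include the members. Over the 2322 others it was 0.62, and 9.65% of them stood at least 1 off on replicate 3. The members were chosen on these arrays, the division into 16 and 17 was made after the values were seen, and neither was tested.

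Among the 16 members that were higher on replicate 3, the excess over replicates 1 and 2 ran from 0.59 to 1.75 with a median of 1.12. AT1G51850 (1.75), AT1G62290 (1.54), AT5G48940 (1.28), AT1G23000 (1.28) and AT1G53860 (1.27) had the largest. AT1G23000 read 7.85, 8.36 and 9.39 in cells, against 5.26 to 7.15 in nuclei. Among the 17 lower on replicate 3, values ran from -1.80 to -0.25 with a median of -0.88. AT1G42980 (-1.80), AT2G39640 (-1.48), AT5G38195 (-1.31), AT5G09490 (-1.19) and AT1G56620 (-1.06) lay lowest. AT2G39640 read 11.96, 11.20 and 10.10 in cells, against 8.35 to 9.74 in nuclei, and AT5G38195 read 11.64, 11.52 and 10.28, against 7.95 to 10.16.

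The markers BAN and BBM also differed between these arrays. BAN read 14.03 and 13.81 on cells replicates 1 and 2 and 12.23 on replicate 3, a step of -1.69 that 32 of the 2355 probe sets (1.36%) matched or passed. BBM read 7.66 and 8.25 on replicates 1 and 2 and 9.40 on replicate 3, a step of 1.45 that 17 of the 2355 (0.722%) matched or passed. These markers had the largest steps of the 7, and the shares were taken for them alone, so the shares are no test. PHV and CR4, the other embryo markers with a named probe set, had steps of 0.52 and 0.35. Among the endosperm markers AGL62 had a step of 0.09, AGL80 of -0.05 and IKU2, which stood near 4.77 in cells, of -0.89. The constant added before the log keeps every value above 0, so a low level does not show that a marker was detected. IKU2 read 4.72, 5.42 and 4.18 on the arrays of cells, so its step lay between low values. PHV read 4.48 on whole-embryo nuclei replicate 1. The part of seed coat, endosperm or embryo RNA in the levels of the members was not tested, and in these bulk samples more cells of a type and more RNA per cell cannot be told apart.

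**Figure D3:**
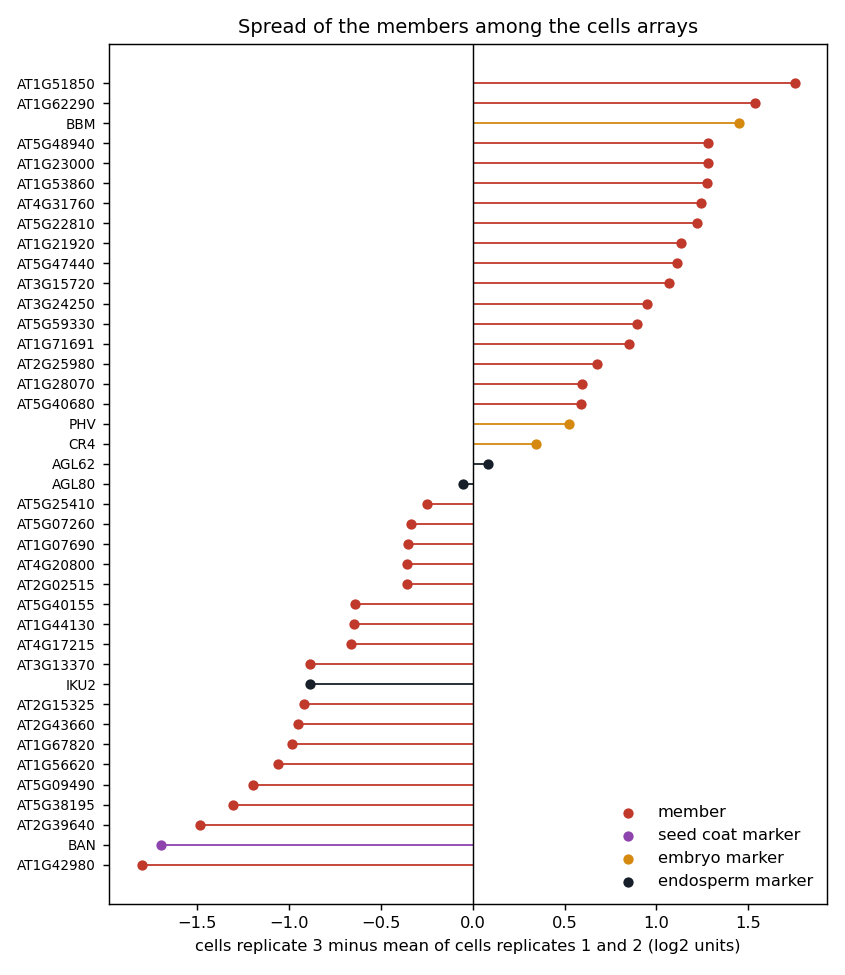
Level on cells replicate 3 minus the mean of cells replicates 1 and 2, in log2 units, for the 33 members (red) and the 7 marker genes with a named probe set. Members run from -1.80 to 1.75, and the markers are BAN (-1.69), IKU2 (-0.89), AGL80 (-0.05), AGL62 (0.09), CR4 (0.35), PHV (0.52) and BBM (1.45).

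The contrasts among nuclei did not enter the rule, but the same 9 nuclei arrays did, through their highest value and their mean. The highest nuclei array of a member was thus held below its lowest array of cells. Within that limit, the contrasts ask whether the nuclear signal of the members differed between the suspensor and the proembryo. No member passed in suspensor against proembryo nuclei. Limma, fitted to the 9 arrays of nuclei over 12787 probe sets that lay above their array's median on at least 3 arrays, called 0 of the 19 members kept at an adjusted p under 0.05, where it called 2.03% of all probe sets. At an unadjusted p under 0.05 were 3 of the 19, where 16.0% of all probe sets were. The other 14 members were too dim for the filter. Without a filter limma called 0 of 33 over 22746 probe sets, against 0.734% of all, and 4 of 33 had an unadjusted p under 0.05, against 11.9% of all.

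AT1G62290 had the largest difference. It read 7.34, 7.49 and 6.92 in suspensor nuclei, against 4.31, 6.72 and 4.71 in proembryo nuclei and 5.73, 7.11 and 6.91 in whole-embryo nuclei. All suspensor arrays lay above all proembryo arrays, 1 of which stood near the suspensor level. The difference of 2.01 log2 units (SE 0.619, n = 3 and 3) had a limma adjusted p of 0.105. In linear units proembryo replicates 1 and 3 read only 3.82 and 10.1, and the difference was 1.13 with 64 and 3.02 with 1 intensity unit added in place of 16. Over left-out arrays it ranged from 1.54 (adjusted p = 0.264, without proembryo replicate 1) to 2.74 (adjusted p = 0.0390, without proembryo replicate 2, the array at 6.72).

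AT4G31760 was the member with the smallest p and the opposite sign. It read 7.68, 5.38 and 6.57 in suspensor nuclei, against 8.15, 8.24 and 7.79 in proembryo nuclei and 8.32, 8.39 and 7.76 in whole-embryo nuclei. The suspensor arrays were all lower and scattered, while the 6 others lay between 7.76 and 8.39. The difference from proembryo nuclei was -1.52 (SE 0.432, limma adjusted p = 0.0786), and from whole-embryo nuclei -1.61 (SE 0.432, adjusted p = 0.0761). Without suspensor replicate 1, the array at 7.68, they were -2.09 and -2.18 with adjusted p of 0.00815 and 0.00877. Without suspensor replicate 2, the array at 5.38, they were -0.93 and -1.03 with adjusted p of 0.252 and 0.228. This gene was at 8.92, 9.65 and 10.53 in cells.

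AT2G43660 read 7.48, 8.16 and 7.62 in suspensor nuclei, against 7.19, 6.90 and 6.59 in proembryo nuclei. Its arrays did not overlap between the lineages, with a difference of 0.86 (SE 0.370, adjusted p = 0.263). AT2G39640 read 8.35, 9.19 and 9.74 in suspensor nuclei, against 8.54, 8.40 and 8.52 in proembryo nuclei, and its groups overlapped (0.60, SE 0.307, adjusted p = 0.347). AT1G71691 read 10.81, 10.63 and 11.20 in suspensor nuclei, against 10.57, 10.45 and 10.35 in proembryo nuclei (0.42, SE 0.231, adjusted p = 0.388). AT2G25980 differed by 0.75 (SE 0.454) with overlapping groups. On the other side, AT1G21920 stood at 8.94, 8.19 and 5.58 in suspensor nuclei, against 8.72, 8.13 and 8.46 in proembryo nuclei (-0.86, SE 0.554). Its difference was 0.13 without suspensor replicate 3, the array at 5.58. AT1G28070 stood at 7.23, 4.24 and 6.46 in suspensor nuclei, against 6.22, 6.71 and 7.55 in proembryo nuclei (-0.85, SE 0.723). Without suspensor replicate 2, the array at 4.24, its difference was 0.014. AT2G15325 (-0.76, SE 0.619) and AT1G67820 (-0.37, SE 0.288) also had overlapping groups.

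Suspensor and proembryo arrays did not overlap for 6 of the 33 members, and for 15.2% of all probe sets. The suspensor lay above for 4 members (8.28% of all probe sets) and below for 2 (6.91% of all). They were AT1G62290, AT4G31760, AT2G43660 and AT1G71691, and AT3G15720 and AT5G09490, which were too dim for the filter. AT3G15720 read 6.16, 6.83 and 6.71 in suspensor nuclei, against 5.58, 6.05 and 5.42 in proembryo nuclei (0.88, SE 0.539, limma without a filter, adjusted p = 0.560). AT5G09490 read 5.94, 4.23 and 5.69 in suspensor nuclei, against 6.20, 6.64 and 6.86 in proembryo nuclei (-1.28, SE 0.585, adjusted p = 0.401). Taking all 33, the median difference between suspensor and proembryo nuclei was 0.39, with 24 above 0, beside a median of 0.06 and 54.6% above 0 over all probe sets. Leaving out each suspensor and proembryo array in turn, the median over the same 33 ranged from 0.28 to 0.48. Over the 19 kept members the median was 0.42, beside 0.01 over all probe sets kept. The suspensor had the highest mean of the 3 kinds of nuclei for 22 members (66.7%), beside 43.5% of all locus-tag probe sets. These medians and shares describe genes chosen with results known and were not tested.

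**Figure D4:**
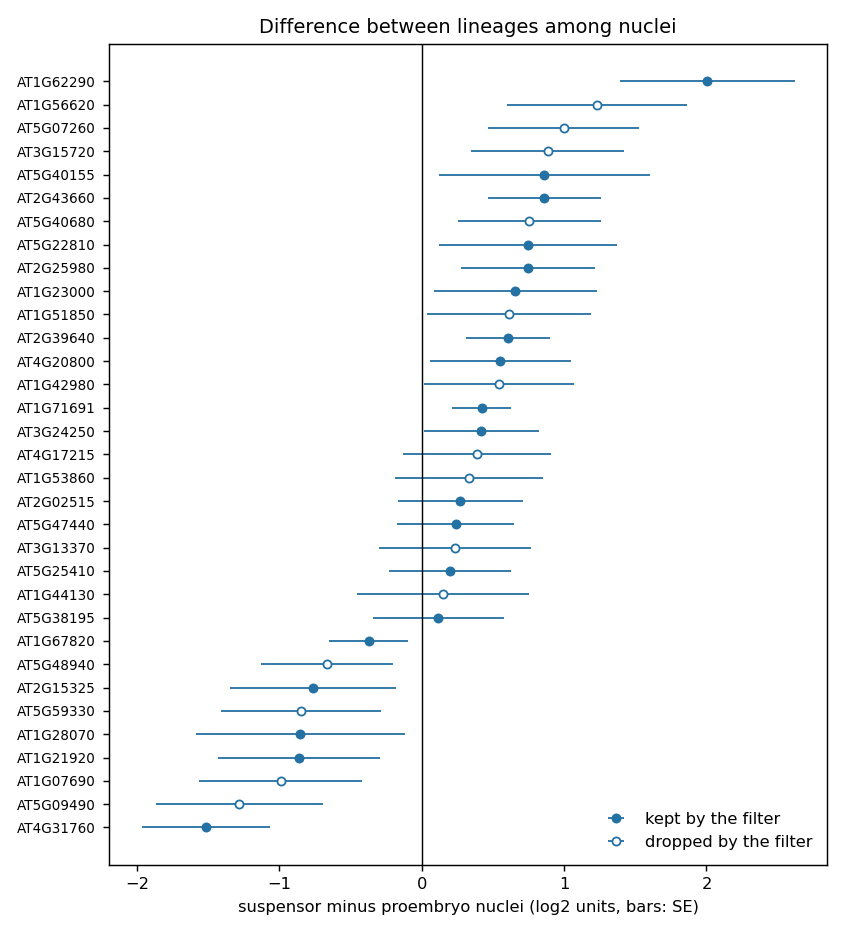
Suspensor minus proembryo nuclei for the 33 members in log2 units, with standard errors from limma without a filter; open circles are the 14 members too dim for the filter. Estimates run from -1.52 (AT4G31760) to 2.01 (AT1G62290), 24 lie above 0, and no member passed.

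The division of the members by cells replicate 3, made after the values were seen, was also set beside the lineage difference, without a test. The 16 members higher on cells replicate 3 had a median difference of 0.42 between suspensor and proembryo nuclei, with 11 above 0. The 17 lower ones had a median of 0.27, with 13 above 0. Over all probe sets the median was 0.06, with 54.6% above 0. In the same nuclei BAN averaged 13.19 ± 0.28 in the suspensor and 12.61 ± 0.43 in the proembryo. Among the embryo markers BBM averaged 6.86 ± 0.30 in the suspensor and 7.90 ± 0.23 in the proembryo, PHV 7.39 ± 0.49 in the suspensor and 7.24 ± 1.22 in the proembryo, and CR4 6.73 ± 0.72 in the suspensor and 7.45 ± 0.57 in the proembryo (SD, n = 3 each). The endosperm genes AGL62, AGL80 and IKU2 averaged 6.83, 7.34 and 6.09 in the suspensor and 6.16, 6.67 and 5.27 in the proembryo. Their part in the lineage differences of the members was not tested.

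Against whole-embryo nuclei, suspensor nuclei again gave 0 of 19 members past the threshold by limma, where 1.56% of all probe sets passed; 3 of the 19 had an unadjusted p under 0.05, and 14.3% of all did. Without a filter limma called 0 of 33, against 0.457% of all, and 6 of 33 had an unadjusted p under 0.05, against 11.0% of all. Of these 6, AT5G07260 (1.53, SE 0.533), AT1G51850 (1.48, SE 0.578) and AT3G15720 (1.41, SE 0.539) were too dim for the filter, with adjusted p of 0.276, 0.347 and 0.334. AT3G15720 read 6.16, 6.83 and 6.71 in suspensor nuclei, against 4.14, 5.88 and 5.43 in whole-embryo nuclei. These comparisons share the suspensor arrays with those above. Beside AT4G31760, AT5G22810 differed by 1.76 (SE 0.623, adjusted p = 0.188), with 6.29, 7.03 and 8.41 in suspensor nuclei, against 4.99, 4.77 and 6.68 in whole-embryo nuclei, where the groups overlapped. AT2G43660 differed by 0.87 (SE 0.370, adjusted p = 0.280), AT3G24250 by 0.70 (SE 0.400), AT2G25980 by 0.66 (SE 0.454) and AT1G21920 by -1.01 (SE 0.554).

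Proembryo against whole-embryo nuclei gave 0 of 19 members by limma, and 0.0% of all probe sets passed, with 1 member and 3.14% of all at an unadjusted p under 0.05. That member was AT1G62290, at -1.34 (SE 0.619, adjusted p = 1.00). AT5G22810 differed by 1.02 (SE 0.623), AT5G40155 by -0.97 (SE 0.748) and AT2G15325 by 0.53 (SE 0.619).

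**Figure D5:**
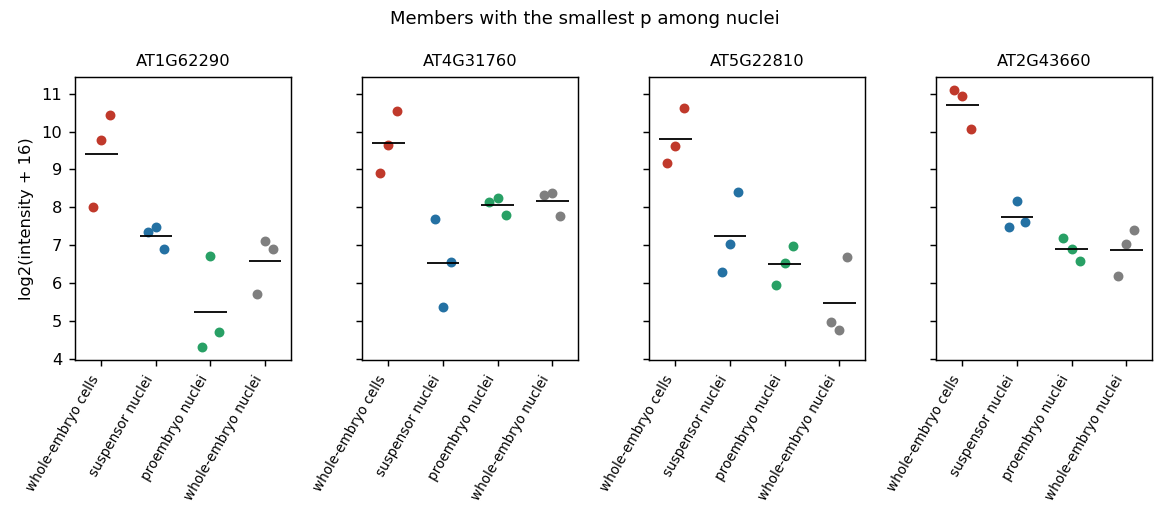
Levels of AT1G62290, AT4G31760, AT5G22810 and AT2G43660 on each array as log2(intensity + 16), with group means as lines. Suspensor nuclei average above proembryo nuclei for AT1G62290, AT5G22810 and AT2G43660 and below them for AT4G31760, and the cells lie above all nuclei.

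Which genes met the rule depended in part on single arrays. Leaving out each of the 12 arrays in turn left 27 to 34 genes, and 16 of the 33 stayed under all 12. Without cells replicate 3, 22 of the 33 stayed and 10 others entered; AT1G71691, AT3G24250, AT4G31760, AT5G48940 and AT1G51850 were among the 11 that did not stay. Of the 10 leading members, 9 stayed under all 12, and AT5G48940 stayed under 11. With 64 intensity units added in place of 16, AT5G48940 (a difference of 1.99) did not meet the rule, and the other leading members did.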

How the data were processed

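Arrays were single-channel ATH1 arrays of biotin-labelled RNA. The authors deposited intensity on a linear scale, a single value for each probe set of an array. MAS5 and affy 1.32.1 are named in the submitters' processing notes without their roles, and no source used here gives the background correction or summarisation. The trimmed mean was 200.02 on every array, and nothing was rescaled.

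Probe sets were named from the platform annotation, updated by gene identifier from TAIR10.1 (11885 of 11933 locus-tag probe sets matched). Protein and promoter sequences were not used here. Values were analysed as log2(intensity + 16) with limma 3.58.1 in R 4.3.3 (intensity trend, Benjamini-Hochberg over all probe sets kept, threshold 0.05), on the 9 nuclei arrays; 64 control probe sets were left out. The fit was also run on simulated data, with changes larger than those estimated between suspensor and proembryo nuclei for nearly all members. That run gives no measure of how often smaller changes would be called. Single values were compared by exact permutation tests. The number of arrays limits the precision.

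The members, lists and tests were chosen with earlier results of these data known. Named members are the 10 largest differences, those nearest the limit, the 3 brightest, and up to 5 with the smallest p in each direction of each contrast; AT1G51850, AT5G09490, AT1G44130, AT3G13370 and AT1G56620 were named after their values were seen. Same-numbered arrays did not deviate together (correlations of -0.14 to 0.11), so replicates were not treated as pairs. Alternatives covered the pseudocount, filter, scaling, arrays fitted, trend, replicate block and left-out arrays.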

Additional observations from a re-analysis of the deposited data

How the results depend on the processing

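For suspensor against proembryo nuclei the count of members past the threshold was 0 under every alternative run except 2 that left out an array (0 to 1): without suspensor nuclei replicate 1 (AT4G31760) and without proembryo nuclei replicate 2 (AT1G62290). Against whole-embryo nuclei, suspensor nuclei gave 0 to 1, with AT4G31760 without suspensor nuclei replicate 1, and proembryo nuclei gave 0 throughout. With the replicate number as a block the counts were 0, 0 and 0, so the block changed no call of a member. Over all probe sets the calls were 260 for suspensor against proembryo and 199 for suspensor against whole-embryo nuclei. They were 285 and 203 with the replicate block. Without the intensity trend they were 17 and 9, and with median centring 62 and 49. Without suspensor nuclei replicate 1 they were 421 and 309. The median of the members for suspensor minus proembryo nuclei, 0.42 over the 19 kept, ranged from 0.20 to 0.45 over left-out arrays; the lowest, without suspensor nuclei replicate 2, was over 17 members, and without that array the 19 had 0.38. With the filter on the mean of the nuclei arrays it was 0.25 over 12 members. With arrays centred on their medians it was 0.32, where that of all probe sets was -0.09. The sign turned for AT1G21920, which ranged from -1.55 to 0.13 over left-out arrays (0.13 without suspensor nuclei replicate 3), and for AT1G28070, from -1.48 to 0.014 (0.014 without suspensor nuclei replicate 2), and was kept for the other 8 members named for that contrast wherever they were measured. The number of genes under the rule, 33, was 14 with a pseudocount of 64, 34 with 1, 35 with median centring and 31 with quantile normalization, and 27 to 34 over left-out arrays. The larger pseudocount shortens differences of dim genes by its construction.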
